A study of Mus musculus with 16 samples.

Results

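The transcripts described here are those of the lung cytochromes P450 known or proposed to activate NNK, a tobacco-specific nitrosamine, together with their electron donor. They are Cyp2a5, Cyp2a4, Cyp2f2, Cyp2b10, Cyp2b19, Cyp2e1, Cyp2s1, Cyp1a1, Cyp1b1 and Por, and every non-control probe whose gene name in the array files is one of these 10 was taken. That gave 16 of 41174 distinct probes, or 10 of 28100 distinct gene names. A probe was tested where some group had it well above background in Cy5 on each of its 4 arrays, which left 14 of the 16 among 30749 in all, and each of the 10 genes had at least 1 of them. The remaining probes were 1 of Cyp1b1, above background on 1 array, and 1 of Cyp2b19, above background on none.

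Lung RNA came from 16 female mice of the inbred strain A/J, which is prone to lung tumours, with 4 mice in each of 4 groups and 1 array per mouse. Untreated mice ate the AIN-76 diet, which holds 0.35 ppm selenium. NNK mice stayed on that diet and were killed 13 days after 1 intraperitoneal injection of NNK (0.2 mL of saline at 10 uM). SECY mice were fed selenocystine (an amino acid that holds selenium) at 15 ppm in the same diet for 10 days, and NNK+SECY mice received both, with the diet starting 3 days after the injection and death 13 days after it. The labels say that all 4 groups were first held on the unsupplemented diet, and no age of the mice is stated in those labels. Each array carried the mouse's own RNA in Cy5 and an equal pool of the 4 untreated RNAs in Cy3, with no dye swap. A level below is log2(Cy5/Cy3), so 0 is the level of the untreated pool, and a change is a difference of group means of that ratio.

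Cytochromes P450 are heme enzymes of the endoplasmic reticulum that oxidise small lipophilic compounds with electrons passed on by POR, the NADPH-cytochrome P450 reductase. NNK is harmless to DNA until a P450 hydroxylates a carbon next to its nitroso group, after which it breaks down to species that alkylate DNA, and in mouse lung CYP2A5 is a main enzyme of this step. Many of these enzymes are concentrated in club cells of the airways, and several P450 genes are induced by the compounds that reach them, Cyp1a1 through the aryl hydrocarbon receptor (AHR) with its partner ARNT.

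Of the 10 genes, 7 lie on chromosome 7 and the other ones on chromosomes 5, 9 and 17, in the RefSeq annotation of GRCm38.p6. Promoters are shown for Cyp2a5 and Cyp2a4, whose probes moved together from mouse to mouse, and for Cyp1a1, whose groups fed selenocystine and not fed it were farthest apart. The 250 bases before the annotated start are chr7:26835089-26835338 for Cyp2a5, chr7:26306942-26307191 for Cyp2a4 and chr9:57697363-57697612 for Cyp1a1, all on the plus strand, from RefSeq on GRCm38.p6 and written 5′ to 3′. Capitals in the Cyp2a5 and Cyp2a4 lines mark the bases at which the genes differ, and capitals in the Cyp1a1 line mark GCGTG.
Cyp2a5: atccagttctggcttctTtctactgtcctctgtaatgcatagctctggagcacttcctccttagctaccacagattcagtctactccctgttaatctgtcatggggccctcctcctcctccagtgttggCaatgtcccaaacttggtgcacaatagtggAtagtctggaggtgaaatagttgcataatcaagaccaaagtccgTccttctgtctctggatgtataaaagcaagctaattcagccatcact
Cyp2a4: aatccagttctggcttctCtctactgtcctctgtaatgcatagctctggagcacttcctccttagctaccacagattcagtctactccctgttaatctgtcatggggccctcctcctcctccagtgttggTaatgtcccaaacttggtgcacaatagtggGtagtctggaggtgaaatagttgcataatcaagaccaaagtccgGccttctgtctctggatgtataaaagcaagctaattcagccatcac
Cyp1a1: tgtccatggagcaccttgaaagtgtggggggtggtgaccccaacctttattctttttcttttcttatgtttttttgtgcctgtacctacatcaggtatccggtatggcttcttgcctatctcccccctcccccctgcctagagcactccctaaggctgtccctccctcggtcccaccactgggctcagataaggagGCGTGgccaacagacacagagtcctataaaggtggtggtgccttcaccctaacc
The Cyp2a5 and Cyp2a4 windows matched at 245 of 249 aligned bases (98.4%), with 2 bases left unaligned. A window of 300 bases (250 before and 50 after the start) was available for all 10 genes and was searched on both strands for GCGTG, the core of the element bound by AHR with ARNT, and for TGANNNNGC, the antioxidant response element bound by NRF2. GCGTG occurred in the windows of 4 of 10 genes, 3 times for Por, 2 times for Cyp2b10 and 1 time each for Cyp1a1 and Cyp1b1, against 32.4% of all 32851 promoters in the table. The Cyp1a1 match began 54 bases before the start. TGANNNNGC also occurred in 4 of 10, with 2 matches each in Cyp2a5, Cyp2a4 and Cyp2b19 and 1 in Cyp2b10, against 41.3% of all promoters. A match is a description of these letters only.

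The arrays differed in ways that touch the comparisons below. In Cy5 the share of spots well above background ran from 66.3% to 79.3% over the arrays. Each slide barcode in the file headers was carried by 2 arrays, scanned on different days, and whether these were separate physical arrays could not be told. Slides 1 to 4 held Untreated and NNK, and slides 5 to 8 held SECY and NNK+SECY, so slide set and diet cannot be told apart. All arrays of NNK-injected mice were scanned on 1 day and all others on another, so scan day and NNK cannot be told apart. Scgb1a1, the secretoglobin that marks club cells, and Sftpc, the surfactant protein that marks alveolar type 2 cells, were saturated in Cy5 on 16 of 16 arrays, whereas no member probe was saturated on any array. In whole lung, fewer cells of a type and less RNA per cell cannot be told apart.

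No member probe passed the threshold (limma, adjusted p under 0.05 over all probes tested) in any of the 6 comparisons. For NNK vs Untreated 0 of 14 member probes were called, against 0.211% of all probes tested. For SECY vs Untreated it was 0 of 14 against 0.283%, and for NNK+SECY vs Untreated 0 of 14 against 1.44%. For NNK+SECY vs NNK it was 0 of 14 against 1.56%, for NNK+SECY vs SECY 0 of 14 against 0.00651%, and for the interaction (how far the change with NNK differed between mice with and without selenocystine) 0 of 14 against 0.00651%. At these background shares a count of 0 among 14 says little of the genes as a group. With unadjusted p under 0.05 there was 1 member probe for NNK vs Untreated (background 4.76%), 1 for SECY vs Untreated (7.89%) and 4 for NNK+SECY vs Untreated (8.78%). For NNK+SECY vs NNK there was 1 (9.80%), for NNK+SECY vs SECY 1 (6.08%), and for the interaction 0 (4.56%). The median change of the 14 probes was -0.03 for NNK vs Untreated, 0.11 for SECY vs Untreated and 0.11 for NNK+SECY vs Untreated, beside medians over all probes tested of 0.0016, -0.0038 and 0.0010. The genes differed from each other mostly in how much single mice varied and in Cyp1a1, as the plot of all 10 genes by mouse shows.

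**Figure D1:**
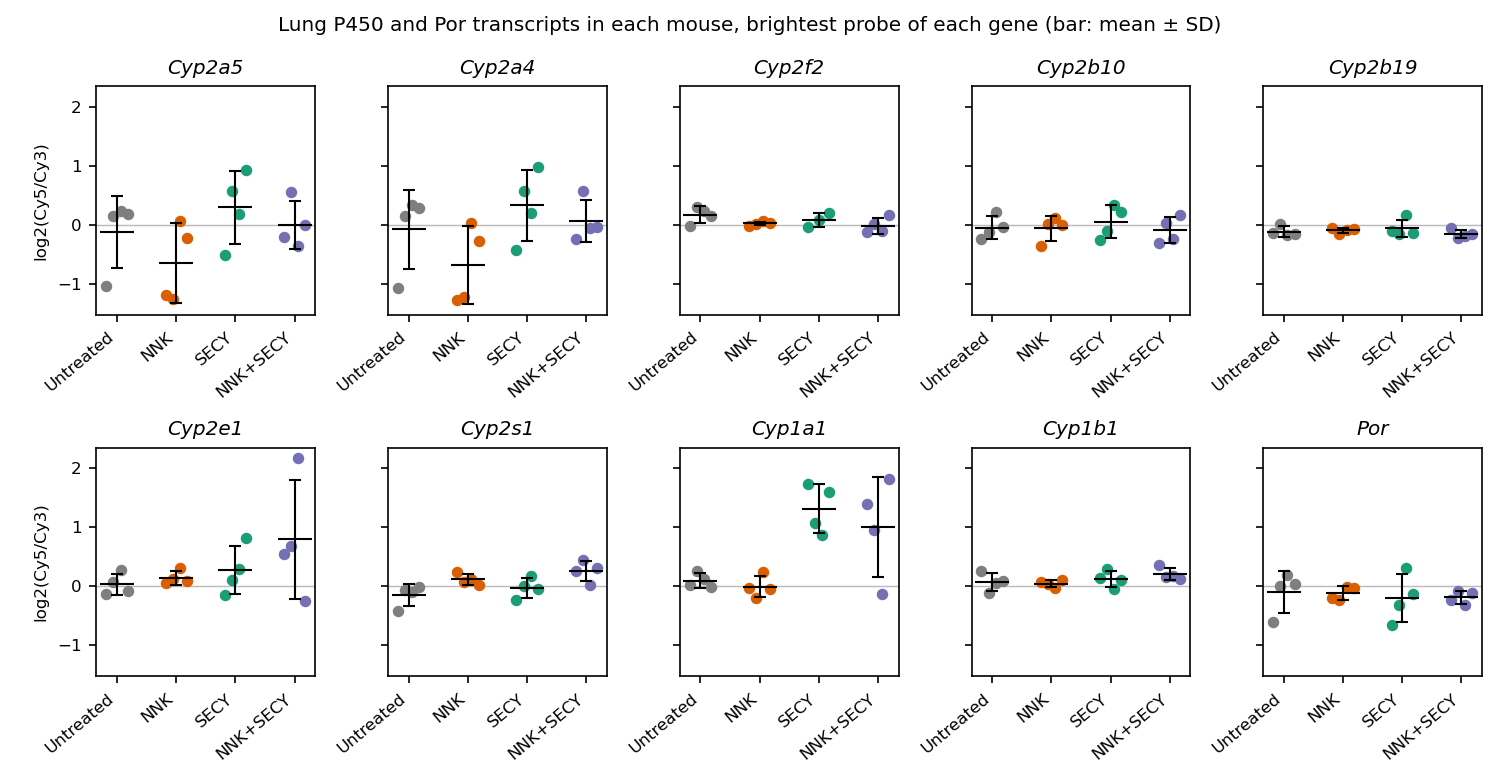
Level of the brightest probe of each gene as log2(Cy5/Cy3) (y axis) in each mouse (points) of the 4 groups (x axis), with the mean and SD of 4 mice as black bars (3 mice for Cyp2f2 in SECY). Cyp1a1 stands between 0.87 and 1.73 in SECY against -0.016 to 0.26 in Untreated, and Cyp2a5 and Cyp2a4 spread over more than 1 log2 unit within the Untreated, NNK and SECY groups.

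Cyp2a5 encodes the coumarin 7-hydroxylase, and Cyp2a4, its close relative, a steroid 15-alpha-hydroxylase. Of their 4 probes, 2 list RefSeq transcripts of both genes, so the probes may share signal and are treated as 1 readout of the pair. The brighter Cyp2a5 probe (A_52_P246252) stood at -1.04, 0.16, 0.23 and 0.18 in Untreated mice 1 to 4 and at -1.19, -1.26, 0.07 and -0.22 in NNK mice 1 to 4. In SECY mice 1 to 4 it stood at -0.51, 0.57, 0.18 and 0.94, and in NNK+SECY mice 1 to 4 at -0.21, 0.56, -0.36 and 0.0027. Untreated 1, NNK 1 and NNK 2 were the lowest of the 16 mice and SECY 4 the highest, and all 4 groups overlapped.

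The Cyp2a5 change was -0.53 ± 0.36 (log2 ± SE, n = 4 per group) for NNK vs Untreated, with an adjusted p of 1.00 (limma). On this probe the NNK mouse was lower than the Untreated mouse on the same slide on 4 of 4 slides, by -1.42 to -0.15. The interval of the change (95%, not adjusted for the number of tests) ran from -1.28 to 0.22, so no change lay inside it. With slide as a block the change was -0.53 ± 0.17, with an interval from -0.90 to -0.16 that did not hold 0, and it did not pass over all probes (unadjusted p 0.0089, adjusted p 0.417). For SECY vs Untreated the change was 0.41 ± 0.36 (adjusted p 0.885), and for NNK+SECY vs NNK it was 0.65 ± 0.36 (adjusted p 0.599). Without Untreated 1 the NNK vs Untreated change was -0.84, with an adjusted p of 0.881; the SECY vs Untreated change was then 0.11 and the NNK+SECY vs Untreated change turned from 0.11 to -0.19, none of them called.

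Cyp2a4 gave a like picture, with a smaller change after NNK on its dimmer probe. Its brighter probe (A_51_P377154) stood at -1.07, 0.15, 0.34 and 0.29 in Untreated mice and at -1.27, -1.23, 0.04 and -0.27 in NNK mice. It stood at -0.42, 0.57, 0.20 and 0.99 in SECY mice and at -0.24, 0.58, -0.05 and -0.03 in NNK+SECY mice. The groups overlapped, and the same 3 mice were lowest. The change was -0.61 ± 0.35 for NNK vs Untreated (adjusted p 1.00, or -0.61 ± 0.15 with slide as a block, adjusted p 0.219), 0.41 ± 0.35 for SECY vs Untreated (adjusted p 0.886) and 0.75 ± 0.35 for NNK+SECY vs NNK (adjusted p 0.512). For NNK vs Untreated the dimmer Cyp2a4 probe changed by -0.26 ± 0.23, and its NNK mouse was lower on 3 of 4 slides. The dimmer Cyp2a5 probe changed by -0.51 ± 0.34, lower on 4 of 4 slides. Over the 6 pairs of the 4 probes, Pearson's r of the ratios lay between 0.971 and 0.996 over 15 or 16 arrays. These points share the arrays and possibly the transcripts, so r is given as a description.

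**Figure D2:**
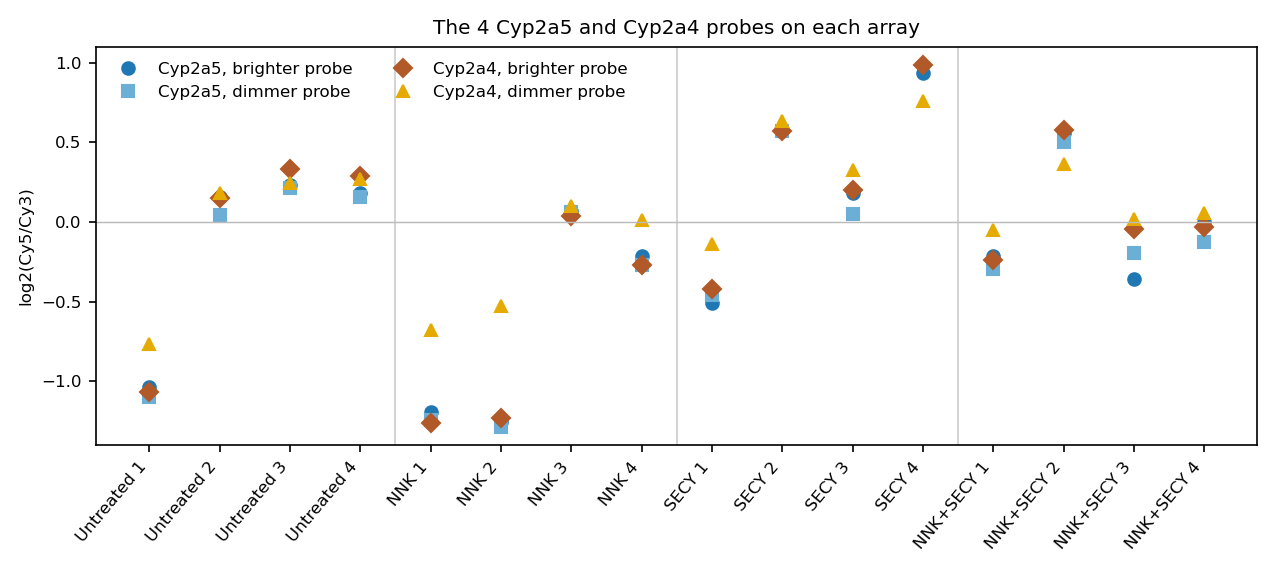
Levels of the 4 Cyp2a5 and Cyp2a4 probes as log2(Cy5/Cy3) (y axis) on each of the 16 arrays (x axis), with vertical lines between the groups. The probes rise and fall together from mouse to mouse, and 3 of them stand below -1 in Untreated 1, NNK 1 and NNK 2.

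The spread between mice of 1 group set some of the 10 genes, Cyp2a5, Cyp2a4, Cyp2e1, Cyp1a1 and Por among them, apart from most probes. The within-group SD of the brighter Cyp2a5 probe was 0.587, higher than that of 99.7% of the probes tested, whose median was 0.0921. The dimmer Cyp2a4 probe (A_52_P9703) had an SD of 0.386, higher than 99.2%. Cyp2e1 had an SD of 0.555 (higher than 99.7%), Cyp1a1 one of 0.481 (99.6%), and Por one of 0.279 (97.7%). Cyp2f2, at 0.114, was higher than 69.7%, and the brighter Cyp2b19 probe, at 0.0946, higher than 53.0%. The tested Cyp1b1 probe, at 0.120, was higher than 73.3%. The brighter Cyp2s1 probe, at 0.162, was higher than 88.6%, and the dimmer one, at 0.0635, higher than 12.9%. Untreated 1 was the lowest of its group for 10 of the 14 member probes tested, beside 30.9% of all probes, and SECY 1 for 10 of 14, beside 18.8%. NNK 3 was the highest of its group for 10 of 14, beside 25.9%, and 4 of the 14 probes are the 1 Cyp2a readout.

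Among 24294 probes of other named genes with a value on all 16 arrays, the 5 most like the brighter Cyp2a5 probe by Pearson's r were both Cyp2a4 probes (0.990 and 0.971), Gnai1 (0.897), Ormdl2 (0.896) and Slc35g1 (0.888). Gnai1 encodes an inhibitory G protein subunit. With the 2 arrays farthest from the Cyp2a5 median left out, r was 0.982 and 0.966 for the Cyp2a4 probes and 0.83 for Gnai1, 0.859 for Ormdl2 and 0.845 for Slc35g1. Gnai1 and Ormdl2 moved over a far smaller range than Cyp2a5, from -0.06 to 0.30 and from -0.20 to 0.11.

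Cyp2f2, the P450 that is highly expressed in mouse club cells and oxidises naphthalene, varied far less between mice than Cyp2a5. Its within-group SD was still higher than that of 69.7% of the probes tested. Its single probe (A_51_P453909) stood at -0.012, 0.31, 0.24 and 0.15 in Untreated mice and at -0.013, 0.02, 0.06 and 0.03 in NNK mice. It stood at -0.03, 0.08 and 0.21 in SECY mice 1 to 3, with no value for SECY 4, whose spot carried an outlier flag, and at -0.13, 0.02, -0.10 and 0.16 in NNK+SECY mice. The groups overlapped, and the whole range over 15 arrays was smaller than the gap between the Cyp2a5 levels of Untreated 1 and Untreated 2. The change was -0.15 ± 0.08 for NNK vs Untreated (adjusted p 1.00) and -0.19 ± 0.08 for NNK+SECY vs Untreated (unadjusted p 0.0264, adjusted p 0.444). The NNK mouse was lower on 4 of 4 slides in the absence of the diet, by -0.29 to -0.00054, so that 1 of them hardly differed. With the diet it was lower on 3 of 3 slides, by -0.31 to -0.07. The intervals for NNK and NNK+SECY vs Untreated ran from -0.31 to 0.01 and from -0.35 to -0.03. With slide as a block the NNK vs Untreated change was -0.15 ± 0.06, with an interval from -0.28 to -0.02 (limma, unadjusted p 0.0267, adjusted p 0.592). The NNK+SECY vs SECY change was then -0.16 ± 0.07, with an interval from -0.34 to 0.03. With median centring in place of loess the changes from Untreated were -0.25 ± 0.08 for NNK (adjusted p 0.520) and -0.34 ± 0.08 for NNK+SECY (adjusted p 0.0550). The interval of the latter reached -0.52. In Cy5 signal alone, without the ratio, the NNK+SECY vs Untreated change was -0.23 with an adjusted p of 0.0385. That fit called 4860 probes in this comparison, against 443 with the ratio, so a call there sets Cyp2f2 little apart. The Cy5 signal of Cyp2f2 (log2, 15.3 to 15.7) lay near that of the saturated Scgb1a1 (15.5 to 15.8), and whether its ratios were compressed was not tested.

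The probes most like Cyp2f2 over 15 arrays were 3 probes of Hspa1a, a stress-induced heat shock protein (r = 0.924, 0.914 and 0.901), and those of Dedd2 (0.919) and Ddit3 (0.913), the latter encoding the stress-response transcription factor CHOP. Without the 2 arrays farthest from the Cyp2f2 median, r lay between 0.834 and 0.887. The Hspa1a probe named first ranged from -1.22 in Untreated 1 to 0.49 in SECY 3, many times the range of Cyp2f2.

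Cyp1a1, which oxidises polycyclic aromatic hydrocarbons, was the member with the largest change in this set. Its probe (A_51_P279693) stood at 0.03, 0.26, 0.13 and -0.016 in Untreated mice and at -0.03, -0.19, 0.24 and -0.04 in NNK mice. In SECY mice it stood at 1.73, 1.07, 0.87 and 1.60, and in NNK+SECY mice at 1.40, 0.95, -0.14 and 1.82. Each of the 4 SECY mice lay above each Untreated mouse, as did 3 of the 4 NNK+SECY mice, and NNK+SECY 3 lay among the mice without the diet.

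The Cyp1a1 change was 1.22 ± 0.29 for SECY vs Untreated, a 2.33-fold difference after normexp and loess (unadjusted p 6.8e-04, adjusted p 0.107, limma). Among all probes tested, 1.79% had SECY groups wholly above Untreated in the same way. It was 0.91 ± 0.29 for NNK+SECY vs Untreated (adjusted p 0.220) and 1.01 ± 0.29 for NNK+SECY vs NNK (adjusted p 0.129). For NNK vs Untreated it was -0.11 ± 0.29 (adjusted p 1.00), and the interaction was -0.20 ± 0.41 (adjusted p 0.998), with an interval from -1.08 to 0.67.

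Whether Cyp1a1 passed the threshold depended on 1 mouse and on the processing. For SECY vs Untreated with all mice kept, it passed with array weights (1.34, adjusted p 0.0238). A pass was also seen in a fit of only the SECY and Untreated arrays (adjusted p 0.0459), which leaves out NNK+SECY 3. With all mice kept, Cyp1a1 also passed in Cy5 signal alone (1.18, adjusted p 0.0230), a fit that called 7217 probes in this comparison, against 87 with the ratio. With array weights Cyp1a1 also passed for NNK+SECY vs NNK (1.07, adjusted p 0.0338). The deposited log2 table gave larger and more uncertain changes, 2.02 ± 0.52 for SECY vs Untreated, 1.42 ± 0.52 for NNK+SECY vs Untreated and 1.73 ± 0.52 for NNK+SECY vs NNK (adjusted p 0.165, 0.373 and 0.188). Without NNK+SECY 3 the change was 1.22 (adjusted p 0.0054) for SECY vs Untreated, 1.29 (adjusted p 0.0054) for NNK+SECY vs Untreated and 1.39 (adjusted p 0.0034) for NNK+SECY vs NNK. In the first of these comparisons that mouse enters only through the shared estimate of the spread. NNK+SECY 3 also had the highest liver marker level of the 16 mice, given with Cyp2e1 below. Nqo1, a quinone reductase induced through NRF2 and AHR and named after its values were seen, stood at 1.17 in NNK+SECY 3 and between 1.17 and 1.85 in all 8 mice fed selenocystine, against -0.07 to 0.24 in the other mice. Tiparp, of the receptors and partners listed below, changed by 0.15 ± 0.15 for SECY vs Untreated (limma, adjusted p 0.906), and its groups overlapped. Ahrr of that list and Cyp1a2 were too dim to be tested.

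The difference in the Cyp1a1 ratio lay in Cy5. The mean Cy5 signal (log2, after loess and scaling between arrays) was 6.50 ± 0.17 (SD, n = 4) in Untreated, 6.36 ± 0.17 in NNK, 7.68 ± 0.49 in SECY and 7.33 ± 0.91 in NNK+SECY. The Cy3 means of the pool differed by at most 0.08 between groups. In Untreated and NNK mice the probe was well above background on 4 of 4 arrays each.

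Cyp1b1, another AHR-responsive member, had small ratios on its 1 tested probe (A_51_P255456). It stood at 0.26, -0.11, 0.06 and 0.09 in Untreated, at 0.08, 0.03, -0.03 and 0.11 in NNK, at 0.15, 0.30, -0.05 and 0.11 in SECY and at 0.36, 0.15, 0.18 and 0.13 in NNK+SECY mice. The NNK+SECY mice lay above the NNK mice without overlap, as 3.52% of all probes tested did, with a change of 0.16 ± 0.08 (adjusted p 0.552). For SECY vs Untreated the change was 0.05 ± 0.08 (adjusted p 0.944), with an interval from -0.12 to 0.22. In Cy5 alone the NNK+SECY vs NNK difference of Cyp1b1 was -0.02, and the pool channel differed by -0.18. In the deposited log2 table the changes were larger, 0.38 ± 0.15 for NNK+SECY vs NNK and 0.32 ± 0.15 for NNK+SECY vs Untreated (adjusted p 0.464 and 0.637), against 0.16 and 0.13 here.

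Cyp2s1, an airway epithelial P450, had higher ratios in mice given NNK, short of the threshold. Its brighter probe (A_51_P180091) stood at -0.42, -0.06, -0.10 and -0.0040 in Untreated and at 0.25, 0.07, 0.13 and 0.02 in NNK mice. It stood at -0.24, 0.01, 0.18 and -0.04 in SECY and at 0.27, 0.45, 0.03 and 0.30 in NNK+SECY mice. All 4 NNK mice and all 4 NNK+SECY mice lay above all 4 Untreated mice, against 2.37% and 3.14% of all probes tested. The change was 0.27 ± 0.10 for NNK vs Untreated (unadjusted p 0.0195, adjusted p 0.872) and 0.41 ± 0.10 for NNK+SECY vs Untreated (unadjusted p 0.0010, adjusted p 0.0649). Without NNK+SECY 3 the latter was 0.49, with an adjusted p of 0.0304. Without Untreated 1, the lowest mouse, it was 0.32 (adjusted p 0.194), and the NNK vs Untreated change was 0.18 (adjusted p 1.00). The change was 0.28 ± 0.10 for NNK+SECY vs SECY (adjusted p 0.813), whose groups overlapped (1.60% of all probes tested had NNK+SECY wholly above SECY), and 0.14 ± 0.10 for NNK+SECY vs NNK (adjusted p 0.715). In single channels, the NNK vs Untreated difference was 0.04 in Cy5 and -0.22 in Cy3, so that ratio differed mainly through the pool channel, whereas for NNK+SECY vs Untreated it was 0.30 in Cy5 and -0.11 in Cy3. The dimmer Cyp2s1 probe (A_52_P456837) changed by 0.03 ± 0.05 for NNK vs Untreated and by 0.02 ± 0.05 for NNK+SECY vs Untreated, and was above background on 2 of 4 Untreated arrays.

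**Figure D3:**
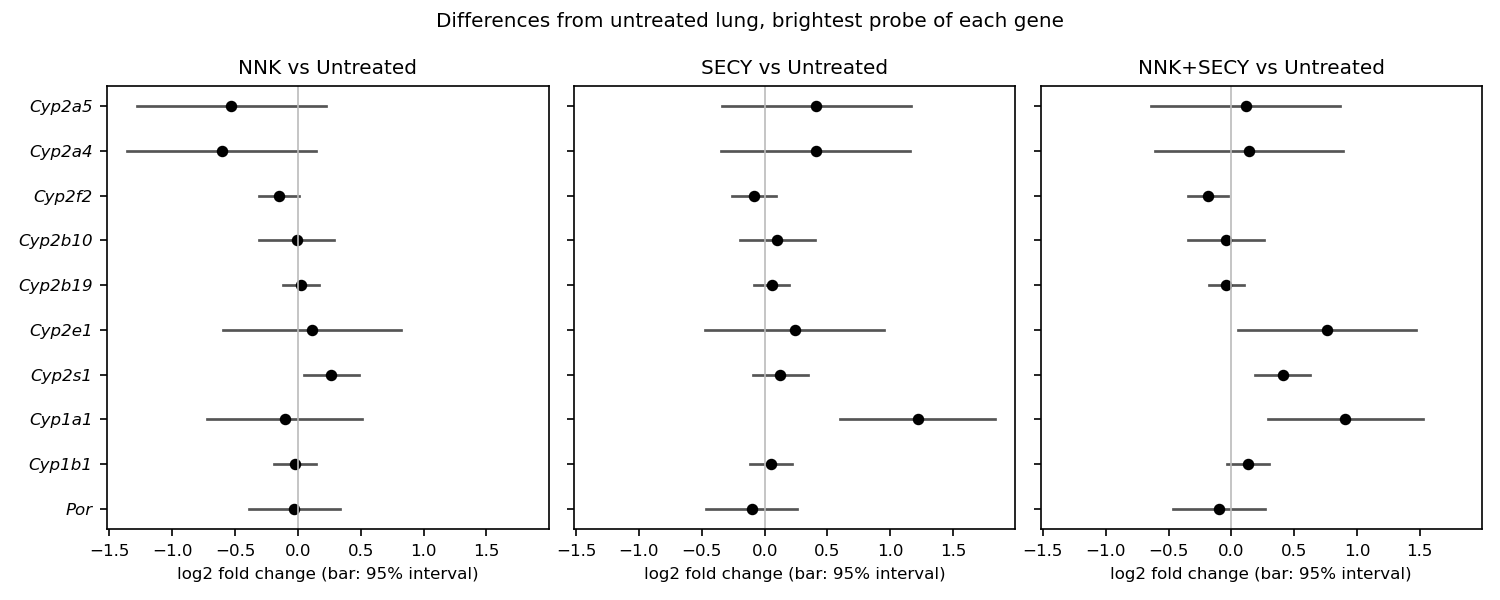
Change from Untreated (log2 fold change, x axis) of the brightest probe of each gene (y axis) after NNK, SECY and NNK+SECY, as points with 95% intervals that are not adjusted for the number of tests. The Cyp1a1 interval for SECY runs from 0.60 to 1.84, while those of Cyp2a5 and Cyp2a4 span 0 in all 3 panels.

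Cyp2e1, the ethanol-inducible P450 that is abundant in liver, varied most in NNK+SECY mice. Its probe (A_51_P283456) stood at -0.13, 0.07, 0.27 and -0.07 in Untreated, at 0.05, 0.13, 0.31 and 0.08 in NNK and at -0.14, 0.11, 0.30 and 0.82 in SECY mice. In NNK+SECY mice it stood at 0.55, 0.69, 2.18 and -0.24, so that this group held both the highest and the lowest level of the 16. The change was 0.76 ± 0.34 for NNK+SECY vs Untreated (unadjusted p 0.0374, adjusted p 0.512) and 0.24 ± 0.34 for SECY vs Untreated (adjusted p 0.936). Without NNK+SECY 3 it was 0.30 for NNK+SECY vs Untreated (adjusted p 0.850).

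Liver markers varied between these lungs. Of 12 liver markers, 10 were on the array and 6 were tested (Alb, Apoa2, Ahsg, Fgb, Tat and Hpx). Between 4 and 10 of the 10 were well above background in Cy5 per array, with all 10 in Untreated 3, SECY 4 and NNK+SECY 3. The median level of the 6 was -0.68, -0.62, 1.05 and -0.53 in Untreated, -0.60, -0.51, 0.55 and -0.33 in NNK, -0.54, -0.53, -0.15 and 2.35 in SECY and -0.61, 1.23, 2.71 and -0.67 in NNK+SECY mice. Their summed Cy5 signal (log2) ranged from 9.20 to 11.5 in Untreated, from 9.47 to 11.0 in NNK, from 9.40 to 13.8 in SECY and from 9.49 to 15.9 in NNK+SECY. Alb, serum albumin, ranged from -1.98 in NNK+SECY 1 to 2.59 in NNK+SECY 3. The highest Cyp2e1 levels were in NNK+SECY 3 and SECY 4, which also had the highest liver markers. NNK+SECY 1 had Cyp2e1 at 0.55 with liver markers at -0.61, a median of 10 adipose markers at 0.37 and the adipose marker Adipoq at 1.04. SECY 3, with the adipose median at 0.51 and Adipoq at 0.80, had Cyp2e1 at 0.30. The part of liver or adipose RNA in the Cyp2e1 level was not tested.

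With the liver marker median as a covariate the NNK+SECY vs Untreated change of Cyp2e1 was 0.42 (adjusted p 0.603), and without the 3 arrays of highest liver marker level (SECY 4, NNK+SECY 2 and NNK+SECY 3) it was 0.12 (adjusted p 1.00). Both settings were chosen after seeing the data. Without those 3 arrays 1 member probe was called for SECY vs Untreated, and 1 each for NNK+SECY vs Untreated and NNK+SECY vs NNK, all Cyp1a1, which then changed by 1.12, 1.51 and 1.62. The 5 probes most like Cyp2e1 were those of Rbp4 (r = 0.962), the retinol carrier of plasma, Bdh1 (0.954), Cyp2d10 (0.950), Azgp1 (0.949) and Mtarc1 (0.944). Without the 2 arrays farthest from the Cyp2e1 median, r fell to 0.836 for Rbp4 and to between 0.678 and 0.737 for the others, so that much of the likeness rested on those arrays.

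**Figure D4:**
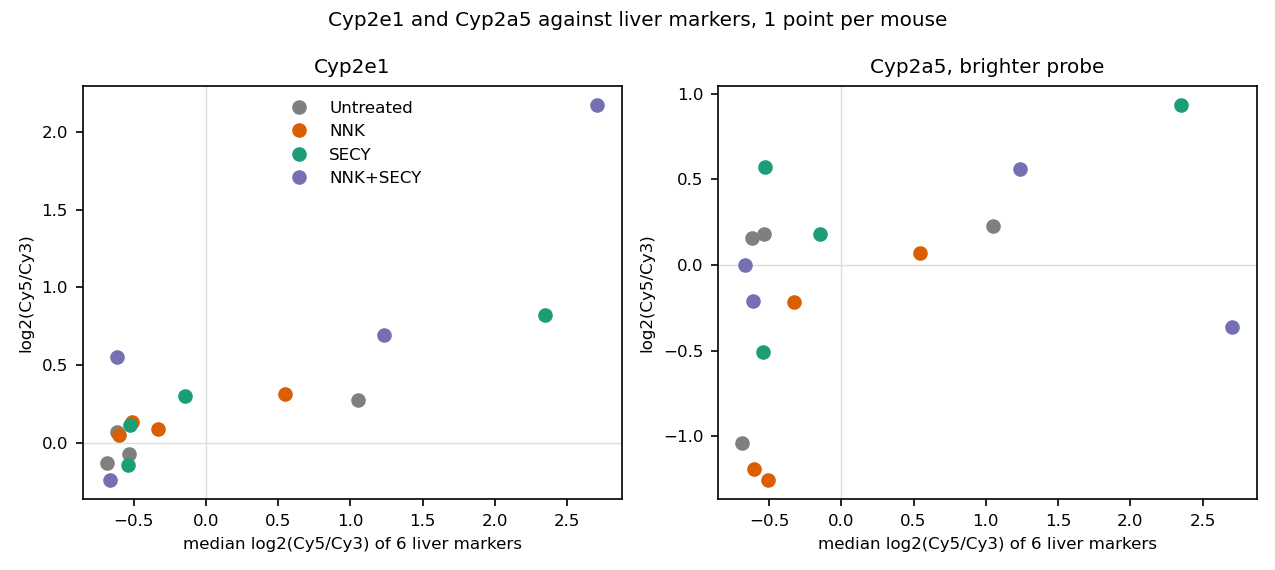
Level of Cyp2e1 (left) and of the brighter Cyp2a5 probe (right) as log2(Cy5/Cy3) (y axes) against the median level of 6 liver markers (x axes), 1 point per mouse. NNK+SECY 3 is at 2.71 on the x axis, with Cyp2e1 at 2.18 and Cyp2a5 at -0.36.

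Cyp2b10, the phenobarbital-inducible P450 controlled by CAR (Nr1i3), differed little between group means. Its brighter probe (A_52_P472486) ranged from -0.36 in NNK 1 to 0.34 in SECY 3, and its change was -0.01 ± 0.14 for NNK vs Untreated, 0.10 ± 0.14 for SECY vs Untreated and -0.04 ± 0.14 for NNK+SECY vs Untreated (adjusted p 1.00, 0.936 and 0.980). The interval for SECY vs Untreated ran from -0.20 to 0.40. Its other probe (A_51_P182362) gave 0.09 ± 0.13 for SECY vs Untreated. Between mice of 1 group it was less even, with SDs of 0.228 on the brighter probe and 0.201 on the other. These were higher than those of 95.7% and 93.8% of the probes tested.

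Cyp2b19, known as a keratinocyte P450, had a flat ratio with unequal signal. Its brighter probe (A_51_P352763) stood between -0.22 and 0.16 on all 16 arrays, and its change was 0.02 ± 0.07 for NNK vs Untreated, 0.06 ± 0.07 for SECY vs Untreated and -0.04 ± 0.07 for NNK+SECY vs Untreated. The mean Cy5 signal (log2) was 6.84 ± 0.33 in Untreated, 6.96 ± 0.34 in NNK, 8.58 ± 0.30 in SECY and 7.82 ± 0.44 in NNK+SECY (SD, n = 4). The Cy3 signal of the same untreated pool was 6.95 ± 0.36, 7.04 ± 0.34, 8.64 ± 0.20 and 7.97 ± 0.51. Both dyes were thus higher on the arrays of slides 5 to 8, with NNK+SECY 1 (7.17 in Cy5) within the range of slides 1 to 4, and the pool channel, which held 1 RNA on all arrays, differed by up to 1.69 between groups. Of all probes tested, 5.95% had a gap of more than 0.5 between group means of Cy3. A reading of Cy5 alone would have called Cyp2b19 higher in SECY than in Untreated (1.75, adjusted p 4.9e-04), which the ratio did not.

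**Figure D5:**
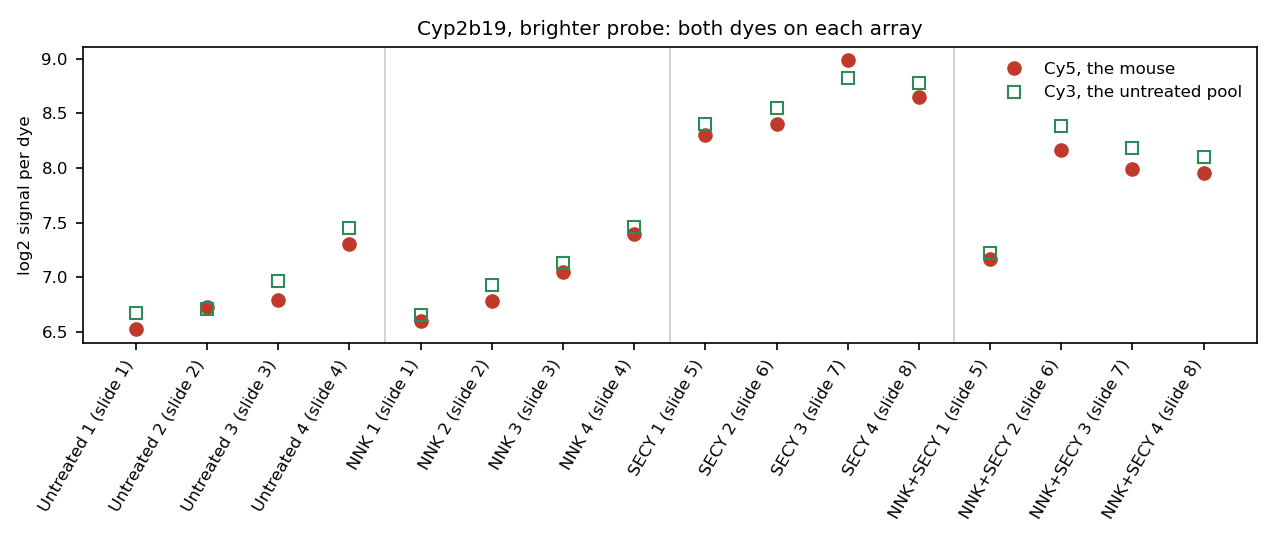
Signal of the brighter Cyp2b19 probe (log2 per dye, y axis) in Cy5, the mouse's RNA, and Cy3, the untreated pool, on each array with its slide (x axis). Both dyes move together, and on 7 of the 8 arrays of slides 5 to 8 they stand above those of slides 1 to 4.

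Por, the electron donor to every microsomal P450, was uneven between mice. Its probe (A_51_P207921) stood at -0.60, 0.01, 0.20 and 0.03 in Untreated, at -0.20, -0.24, -0.01 and -0.02 in NNK, at -0.65, -0.31, 0.32 and -0.13 in SECY and at -0.23, -0.08, -0.32 and -0.12 in NNK+SECY mice. Untreated 1 and SECY 1 were lowest, and the groups overlapped. The change was -0.03 ± 0.17 for NNK vs Untreated, -0.10 ± 0.17 for SECY vs Untreated and -0.10 ± 0.17 for NNK+SECY vs Untreated (adjusted p 1.00, 0.946 and 0.954), with intervals between -0.47 and 0.34. Without Untreated 1 the changes were -0.20, -0.27 and -0.27, each ± 0.15 (adjusted p 1.00, 0.749 and 0.645). Alas1, which makes the first precursor of heme, showed a like unevenness, with -0.81 in Untreated 1 and -0.52 in SECY 1. Its change was -0.02 ± 0.22 for NNK vs Untreated.

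Among genes that work with these P450s, those that passed the test were enzymes of carbonyl and aldehyde metabolism and epoxide hydrolysis. Of 17 electron and heme partners (cytochrome b5, its reductases and the heme pathway), 0 passed in any comparison. Of 16 xenobiotic receptors and partners tested, 0 passed. Ahr changed by 0.0090 ± 0.23 for SECY vs Untreated, and Arnt by -0.01 ± 0.06. Nr1i3 changed by 0.04 ± 0.08 for SECY vs Untreated. Of 30 other Cyp1 to Cyp4 genes tested, 0 passed in any comparison, with a median change of 0.02 for SECY vs Untreated.

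Of 21 genes of NNK reduction and conjugation tested, 3 rose for SECY vs Untreated and none fell, with a median of 0.05 over the 21. Aox1, an aldehyde oxidase, rose by 0.81 ± 0.08 (adjusted p 3.0e-05), Cbr3, a carbonyl reductase, by 0.59 ± 0.09 (adjusted p 0.0070), and Ephx1, the microsomal epoxide hydrolase, by 0.52 ± 0.08 (adjusted p 0.0070). The same 3 genes rose for NNK+SECY vs Untreated, by 0.68 ± 0.08, 0.53 ± 0.09 and 0.59 ± 0.08, a comparison that shares its controls with the first. For NNK+SECY vs NNK, Aox1 rose by 0.76 ± 0.08 and Cbr3 by 0.49 ± 0.09. For NNK vs Untreated and for NNK+SECY vs SECY, 0 of 21 passed.

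Of 14 club cell markers, which mark cells rich in these P450s, 2 rose and 1 fell past the threshold for NNK+SECY vs Untreated. Over all 14 the median change was -0.10 in that comparison, with 5 above 0, and -0.06 for NNK+SECY vs NNK, with 6 above 0. It was 0.02 for SECY vs Untreated, with 8 above 0, and 0.04 for NNK vs Untreated, with 9 above 0. Aldh1a1, a retinaldehyde dehydrogenase, rose by 0.74 ± 0.08 and Aldh1a7 by 0.57 ± 0.11, and Bpifa1, a secreted airway protein, fell by -0.41 ± 0.10. For SECY vs Untreated, Aldh1a1 rose by 0.73 ± 0.09 and none fell, and for NNK vs Untreated 0 of 14 passed. For NNK+SECY vs NNK, Aldh1a1 rose by 0.58 ± 0.08 and Lypd2 fell by -0.54 ± 0.12. The summed Cy5 signal of the 14 (log2) ranged from 16.9 to 17.1 in Untreated, from 16.9 to 17.1 in NNK, from 16.7 to 17.2 in SECY and from 17.0 to 17.0 in NNK+SECY mice. The saturated Scgb1a1 contributes only a bound to these sums, and the part of club cell number in the P450 levels was not tested.

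Of the other cell type markers tested, 0 of 14 ciliated, 0 of 12 alveolar type 2, 0 of 10 alveolar type 1, 0 of 11 alveolar macrophage and 0 of 10 adipose markers passed in any comparison. Short of the threshold, 14 of 14 ciliated markers were above 0 for NNK vs Untreated (median 0.15, beside 0.0016 over all probes). The count was 12 for NNK+SECY vs Untreated (0.18), 13 for NNK+SECY vs SECY (0.14) and 10 for SECY vs Untreated (0.06). For SECY vs Untreated, 1 of 12 alveolar type 2 (-0.15) and 1 of 11 alveolar macrophage markers (-0.17) were above 0. Of 7 keratinocyte and basal cell markers, Krt15, a basal keratin, rose by 0.58 ± 0.11 for NNK vs Untreated and by 0.89 ± 0.11 for NNK+SECY vs Untreated, beside the flat ratio of Cyp2b19. For NNK+SECY vs Untreated, 1 of 12 endothelial markers (Sox17, a transcription factor, -0.40 ± 0.09) and 1 of 12 fibroblast and smooth muscle markers (Mfap4, an extracellular matrix protein, -0.73 ± 0.17) fell. The part of these cell types in the P450 levels was not tested.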

How the data were processed

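Lung RNA of 16 mice was measured on 2-colour Agilent arrays, read out by the authors with Agilent Feature Extraction (version 8.1.1.1 by the file headers). Each deposited file gives linear intensity values for spot and background, and the software's own dye-normalized log10 of red over green. The log2 values of the deposited series table equalled that ratio within 0.005 on each array, with column medians of 0. Of 43790 features, 41534 are no controls. Gene names of members are those of the files. Other names were updated through RefSeq (GRCm38.p6): 22072 probes by accession, 6280 by symbol, 4226 by synonym, with 8596 keeping the file's name.

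Mean signals were corrected with normexp (offset 50) and loess within arrays (R 4.3.3, limma 3.58.1), with control and outlier-flagged spots at weight 0, flagged values left out and replicate spots averaged. A limma model with 4 group means over 16 arrays gave changes for each probe, with Benjamini-Hochberg adjustment over 30749 probes at a threshold of 0.05. The code was tested on simulated data. The number of arrays limits the precision. The labels number the samples of a group but name no separate mice, so p-values measure the spread between these samples, which are taken as 1 mouse each. Values of single dyes followed loess with Aquantile scaling between arrays. A listed gene is represented by its probe of highest mean intensity. Named genes are all members, list genes past the threshold (at most 4 per list and comparison), some genes that define a list, and the 5 probes most like Cyp2a5, Cyp2f2 and Cyp2e1. Clone-like names were left out of that likeness by a pattern written after the files were seen. The members, lists and rules were chosen with earlier results of these data known. Alternatives covered background correction, normalization, the deposited log2 table, Cy5 alone, the filter, weights, slides, the replicate number and each array left out.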

Additional observations from a re-analysis of the deposited data

Results flagged for a closer look

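In 54 groups of 4 mice over the 14 member probes, 6 had a mouse set far from the others by Dixon's gap test, where chance gives about 1 in 20. Untreated 1 was such a mouse on all 4 Cyp2a5 and Cyp2a4 probes, which count as 1 readout: it stood at -1.04 and -1.10 on the Cyp2a5 probes and at -1.07 and -0.77 on the Cyp2a4 probes. Since it is 1 of the 4 RNAs of the pool, the untreated reference holds it too. On the brighter Cyp2b19 probe Untreated 2 stood at 0.019 and SECY 3 at 0.16, each above the rest of its group. No difference of effects between groups passed for a member.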

How the results depend on the processing

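No member probe was called in the reported analysis, so each alternative could only add calls. Across the alternatives 185 counts of called member probes stayed at 0 and 15 rose. With log2 Cy5 signal in place of the ratio, 2 were called for SECY vs Untreated (Cyp1a1 and Cyp2b19), 3 for NNK+SECY vs Untreated (Cyp2b19, Cyp2f2 and the dimmer Cyp2s1 probe, 0.20 in Cy5 with 0.18 in the pool channel) and 1 for NNK+SECY vs NNK (Cyp2b19). Under that setting Cyp2b19 turned from slightly lower to higher, by 0.98 (adjusted p 0.0130) for NNK+SECY vs Untreated and by 0.86 (adjusted p 0.0354) for NNK+SECY vs NNK, as did the pool channel. Array weights called 1 probe in each of SECY vs Untreated (Cyp1a1), NNK+SECY vs Untreated (Cyp2s1) and NNK+SECY vs NNK (Cyp1a1). The fit of only the arrays compared called 1 for SECY vs Untreated (Cyp1a1, adjusted p 0.0459). With each array left out in turn, the counts ranged from 0 to 1 for SECY vs Untreated, from 0 to 2 for NNK+SECY vs Untreated and from 0 to 1 for NNK+SECY vs NNK. Leaving out NNK+SECY 3 gave the calls of Cyp1a1, and leaving out SECY 1, SECY 3 or NNK+SECY 3 that of Cyp2s1. Without the 3 arrays of highest liver markers, added after seeing the data, 1 probe (Cyp1a1) was called in each of those 3 comparisons. The causes were not tested. Over all probes, calls ranged from 18 to 495 for NNK vs Untreated, 35 to 7217 for SECY vs Untreated, 233 to 4860 for NNK+SECY vs Untreated, 335 to 2280 for NNK+SECY vs NNK, 0 to 39 for NNK+SECY vs SECY and 0 to 4 for the interaction, with the highest count from Cy5 alone in all but the interaction.

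Mice with the same replicate number did not deviate together in every pair. For replicates 1 to 4, r was 0.44, 0.17, 0.34 and -0.02 for NNK vs Untreated, and 0.47, 0.16, 0.49 and -0.10 for SECY vs Untreated. The numbers were not taken as pairs in the reported fit. Within NNK vs Untreated and within NNK+SECY vs SECY, mice of the same number share a slide barcode, so the pairs there are those of the slide block. The replicate block called 0 member probes in the 6 comparisons, and Cyp1a1 had an adjusted p of 0.0609 for SECY vs Untreated. Slide as a block called 0 for NNK vs Untreated, NNK+SECY vs SECY and the interaction, and gave no value for the diet comparisons, whose groups lie on different slides. As a random block (consensus correlation 0.121) slide called 0. The interaction has no fit of only some arrays. Counting GCGTG and TGANNNNGC on the forward strand alone gave 20.0% and 23.7% of promoters. Precision was limited by 4 arrays per group, and 2 member probes were not above background in any whole group.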
